A study of Mus musculus with 14 samples.

Results

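Lipocalin 2 and the acute phase proteins were followed through fat cell formation in 3T3-L1, a mouse line of fibroblast-like cells that turn into lipid-filled fat cells in hormone-containing medium. The rule named 9 genes: Lcn2, Saa3, Orm1, Hp, C3, Cp, Serpina3n, Il6 and Nfkbia. Each was represented by the probe set that carried its symbol alone and had the highest mean over the 14 arrays, and 8 of the 9 were matched among 18193 genes tested. The symbol C3 was on no named probe set here, and C3 was not analysed. All cells had been transduced with lentivirus. The virus carried a scrambled sequence in the group labelled Control and a TP53INP2 siRNA sequence in the group labelled KD TP53INP2, and these groups are called control and knockdown here. Trp53inp2 encodes a nuclear protein known for its part in autophagy. RNA was taken at day 0, when the cells were confluent and not yet induced, from 3 control and 3 knockdown samples. It was taken again at day 7 of differentiation, when the labels call the cells adipocytes, from 4 control and 4 knockdown samples. The labels name 1 cell line and do not say that replicates were separate cultures or transductions, so p-values here reflect just the variation among these arrays, and that variation may be technical. Amplified RNA was hybridised to single-colour Affymetrix arrays, and every level below is a log2 intensity on a scale that ran from 1.13 to 14.37.

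Acute phase proteins are plasma proteins that the liver, and also fat tissue, secretes in larger amounts during inflammation. Interleukin 6 (Il6) acts through the receptor subunit gp130 on the transcription factor STAT3, while cytokines and microbial products free NF-kappaB from its inhibitor IkappaB-alpha (Nfkbia), and both routes act with C/EBP factors on acute phase genes. C/EBP factors also drive fat cell formation, and several acute phase genes are known to be expressed in fat cells. Lipocalin 2 binds iron-carrying siderophores, serum amyloid A3 and orosomucoid are secreted inflammation markers, haptoglobin binds free haemoglobin, and ceruloplasmin is a copper ferroxidase. Serpina3n is a secreted serine protease inhibitor.

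The stretches of 250 bases before the annotated start of 5 members are shown because these genes hold matches to the motifs of the factors above and because Saa3, Serpina3n and Il6 were high in the same arrays of day 7. The sequences are from RefSeq (build GRCm38.p6), run 5′ to 3′ on the gene's strand, and were found for 7 of the 9 members. All 7 hold a match. C3, with 3 C/EBP matches, and Cp, with 1 in each of its entries, are not shown. Capitals mark matches, on either strand, to the degenerate NF-kappaB consensus or a C/EBP motif (TTNNGNAA), and a STAT motif (TTCNNNGAA) was also searched. No match overlapped another.
Lcn2: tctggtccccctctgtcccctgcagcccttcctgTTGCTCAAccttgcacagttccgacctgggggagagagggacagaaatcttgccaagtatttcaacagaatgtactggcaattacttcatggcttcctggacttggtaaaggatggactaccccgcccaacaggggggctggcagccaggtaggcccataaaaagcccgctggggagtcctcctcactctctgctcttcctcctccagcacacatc
Saa3: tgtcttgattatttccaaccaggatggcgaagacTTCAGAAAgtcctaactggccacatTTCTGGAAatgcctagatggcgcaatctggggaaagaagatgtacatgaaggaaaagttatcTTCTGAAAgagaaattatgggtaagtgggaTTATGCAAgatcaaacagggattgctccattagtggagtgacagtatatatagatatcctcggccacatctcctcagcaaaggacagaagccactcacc
Serpina3n: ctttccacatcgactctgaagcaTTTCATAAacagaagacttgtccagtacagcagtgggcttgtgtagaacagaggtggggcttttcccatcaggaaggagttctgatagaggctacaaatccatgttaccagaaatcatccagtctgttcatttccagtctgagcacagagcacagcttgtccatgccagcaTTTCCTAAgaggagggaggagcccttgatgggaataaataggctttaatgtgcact
Il6: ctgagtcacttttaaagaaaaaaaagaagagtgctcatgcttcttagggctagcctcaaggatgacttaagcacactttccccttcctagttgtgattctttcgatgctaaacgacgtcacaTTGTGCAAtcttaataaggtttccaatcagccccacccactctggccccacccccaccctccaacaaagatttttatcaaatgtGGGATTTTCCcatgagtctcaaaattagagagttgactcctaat
Nfkbia: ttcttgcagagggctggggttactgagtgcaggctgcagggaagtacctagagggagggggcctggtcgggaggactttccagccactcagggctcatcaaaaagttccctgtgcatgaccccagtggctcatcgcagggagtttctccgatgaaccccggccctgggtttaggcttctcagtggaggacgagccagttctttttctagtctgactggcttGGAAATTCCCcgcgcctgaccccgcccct

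The Lcn2 stretch lies on the minus strand at chr2:32387740-32387989 and holds 1 C/EBP match, TTGCTCAA, which begins 216 bases before the start. The Saa3 stretch, at chr7:46715677-46715926 on the minus strand, holds 4 C/EBP matches. The Serpina3n stretch, at chr12:104406458-104406707 on the plus strand, holds 2 C/EBP matches and no NF-kappaB match. In Il6, at chr5:30012864-30013113 on the plus strand, 1 NF-kappaB match (GGGATTTTCC) begins 44 bases before the start and 1 C/EBP match (TTGTGCAA) begins 128 bases before it. Nfkbia, at chr12:55492648-55492897 on the minus strand, holds 1 NF-kappaB match (GGAAATTCCC) 29 bases before its start. Of 32851 promoter entries searched over the same length, 3.9% held the NF-kappaB motif, 36.8% the C/EBP motif and 7.02% the STAT motif. None of the 5 stretches held the STAT letters. A match here is a description of the sequence and not a measured binding site.

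Trp53inp2 was lower in the knockdown at both times, by 1.17 ± 0.15 (SE) at day 0 and 1.57 ± 0.13 at day 7 on the log2 scale (limma, adjusted p = 0.00205 and 0.000111). Its dimmer second probe set differed by 0.20 and 0.24 the other way, with adjusted p over all probe sets of 0.722 and 0.527. Its day 0 call was lost when the 2 probe sets were averaged (adjusted p = 0.105), and also when replicates 1 and 2 were merged into 1 sample (adjusted p = 0.165). The mean log2 level of 8 fibroblast markers was 12.94 to 13.05 over the day 0 arrays, and that of 9 fat cell markers was 7.01 to 8.16 at day 0 and 9.66 to 11.87 at day 7. At day 7 that mean was 11.13, 11.21, 9.66 and 9.87 in control replicates 1 to 4 and 11.73, 11.69, 10.67 and 11.87 in the knockdown. All 9 fat cell markers had higher fitted values in the knockdown at day 7 (median 1.22), and 0 passed the test (limma). An unadjusted p under 0.05 was found for 5 of them, and for 4273 of all 18193 genes. All 8 fibroblast markers had lower fitted values in the knockdown at day 7 (median -0.37). Pdgfra and Col3a1 fell, by 0.49 ± 0.13 (adjusted p = 0.0436) and 0.35 ± 0.07 (adjusted p = 0.0134), where 3.57% of all genes fell. The mean level of the 8 fibroblast markers was 12.36 to 12.67 over the control and 11.94 to 12.48 over the knockdown arrays of day 7. Without both replicate 3 arrays of day 7, 3 fat cell markers rose and 6 fibroblast markers fell at day 7. Of all genes, 973 rose and 1215 fell in that fit. These are bulk RNA measurements, in which fewer cells of a type and less RNA per cell cannot be told apart. The difference between 3′ and 5′ probe sets of beta-actin, a measure of RNA and amplification quality, was 3.32 to 3.76 in control and 2.74 to 3.23 in knockdown arrays at day 0. For Gapdh it was 2.02 to 2.43 and 1.59 to 1.90. For the transferrin receptor it was 2.99 to 3.19 and 1.63 to 4.14, so these groups overlapped. The part of these marker and quality values in the results was not tested.

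Replicate 3 at day 7 stood apart in both groups for these genes. Saa3 was 13.73 in control replicate 3 against 8.58 to 9.18 in the other 3 control arrays, and 13.60 in knockdown replicate 3 against 8.39 to 9.15. That is 29.8-fold and 27.8-fold above the mean of the others, and Saa3 ranked 2 of all genes by this difference in each group. Hp was 12.54 against 8.32 to 8.53 in control and 11.43 against 8.94 to 9.20 in knockdown. Serpina3n was 11.66 against 8.39 to 8.95, and 10.99 against 8.35 to 8.50. Il6 was 8.65 against 5.91 to 6.52, and 8.39 against 6.14 to 6.37. In both groups, replicate 3 of these 4 of 8 members (50%) lay above every other array and at least 2-fold above their mean. By this rule 1.68% of all genes were higher in replicate 3.

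The other 4 members did not meet that rule in both groups. Lcn2 in control replicate 3 was 13.64 against 11.20 to 11.26. In knockdown replicate 3 it was 13.26 against 12.39 to 12.55, which is under 2-fold above their mean. Cp was 0.58 and 1.00 above the mean of the other arrays in control and knockdown, and Nfkbia 0.38 and 0.18 above it. Orm1 was 0.22 and 0.29 below.

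**Figure D1:**
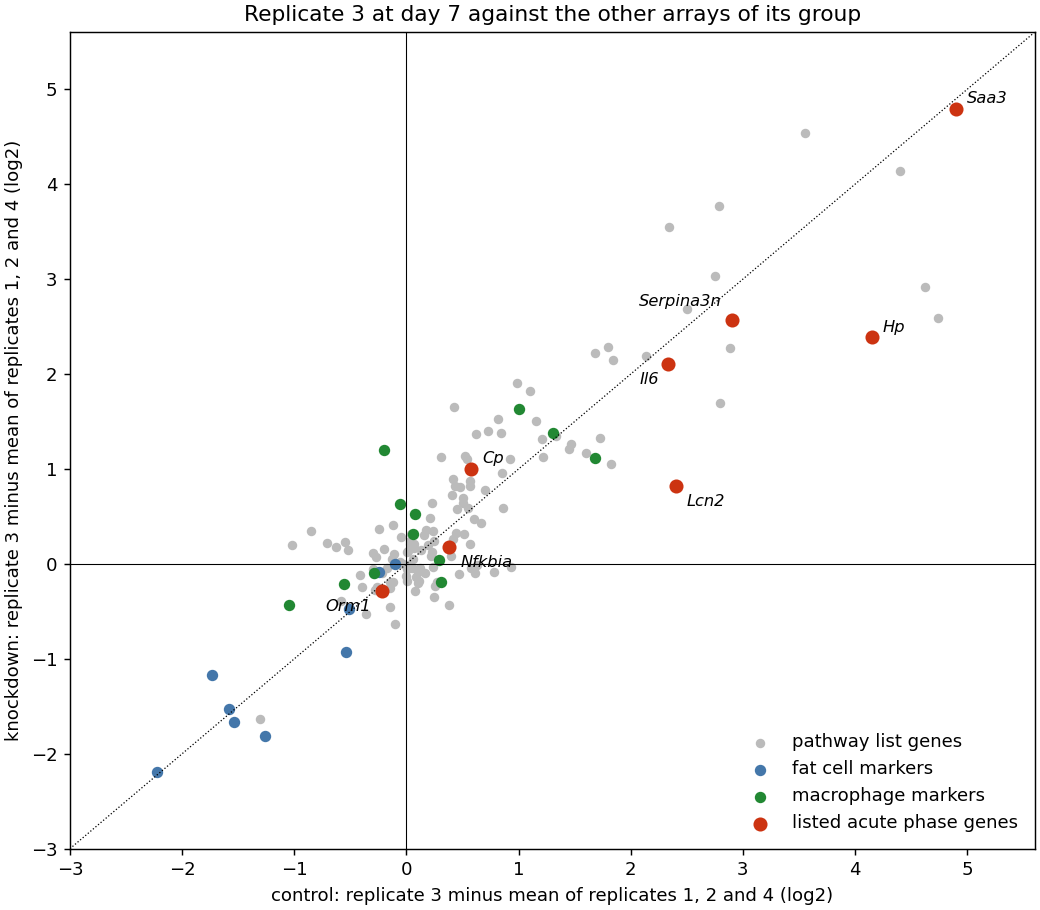
Each point is a gene, placed by the log2 difference of day 7 replicate 3 from the mean of the other 3 arrays in the control group (x axis) and in the knockdown group (y axis). Red marks the 8 measured members, blue the fat cell markers, green the macrophage markers and grey the genes of the pathway lists. Hepatocyte, endothelial and fibroblast markers are not drawn, and the dotted line marks equal values. Saa3 lies at 4.90 and 4.80, Hp at 4.15 and 2.39, and Orm1 slightly below 0 on both axes.

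Other inflammatory genes stood with the 4 members in replicate 3. By the same rule, 5 of 23 other acute phase genes were higher in both groups: Saa1 (4.40 in control and 4.14 in knockdown), Saa2, the lipopolysaccharide-binding protein Lbp, Ptx3 and Steap4. Itih4 was lower. Of 16 inflammatory ligands and NF-kappaB target genes, 8 were higher, among them the chemokine genes Cxcl5 (3.55 and 4.54) and Ccl2 (2.75 and 3.04). Of 18 complement genes, 5 were higher, with Serping1, the C1 inhibitor, at 4.74 and 2.59. Of 26 NF-kappaB pathway genes 4 were higher, and of 19 genes of IL-6 and STAT3 signalling 2 were. None of 17 lipocalin and iron handling genes or of 9 glucocorticoid response genes was.

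Markers of other cells were read in the same arrays. Of 12 macrophage markers, Cd14 and Mrc1 were higher in replicate 3 of both groups, and the log2 of the summed macrophage level was 10.43 in control replicate 3 against 9.51 to 9.84, and 10.75 in knockdown replicate 3 against 9.36 to 9.86. Adgre1 (2.52 in control and 2.63 in knockdown) and Itgam (2.67 and 2.26) were near the bottom of the scale in replicate 3. So were Ptprc (3.25 and 3.50), Tyrobp (3.36 and 2.90) and Laptm5 (3.64 and 3.75). Lyz2 was at 4.90 and 5.31, Aif1 at 4.99 and 5.40, Fcer1g at 5.36 and 6.11, and Cd68 at 6.25 and 6.47. In control, Itgam and Tyrobp lay above the other arrays, and Cd68, Fcer1g, Aif1 and Laptm5 below them. In knockdown, Adgre1, Ptprc, Lyz2 and Aif1 lay above, and Fcer1g and Tyrobp below. The receptor gene Csf1r was 9.12 against 7.61 to 8.43 in control, and 9.88 against 7.87 to 8.74 in knockdown. Of 10 hepatocyte markers 1, Cps1, was higher. Of 9 fat cell markers 4 were lower (Cidec, Lipe, Retn and Cebpa), beside 0.357% of all genes. The beta-actin 3′ to 5′ difference was 2.82 in control replicate 3 against 3.22 to 3.48, and 2.70 in knockdown replicate 3 against 2.98 to 3.37. For Gapdh it was 1.24 against 1.73 to 1.79, and 1.35 against 1.53 to 1.70. For the transferrin receptor replicate 3 lay inside the range of the others, at 5.43 against 4.81 to 5.46, and 5.46 against 5.04 to 5.86. The part of these values in the replicate 3 pattern was not tested, and the counts and calls that change without replicate 3 are given both ways.

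The knockdown was compared with control at each day, and the 2 effects with each other, in 1 linear model over all 14 arrays (limma, Benjamini-Hochberg adjustment over 18193 genes, threshold 0.05). No member passed at day 0, where 1.8% of all genes did, or at day 7, where 6.58% did, or for the difference of the effects, where 0.022% did. At an unadjusted p under 0.05 the counts were 2 members at day 0 (Lcn2 and Orm1), 1 at day 7 (Cp) and 1 for the difference (Lcn2). Of all 18193 genes, 2808, 4273 and 2403 were under it in these comparisons. The members' median effect was -0.12 at day 0 and -0.07 at day 7, beside -0.05 and -0.02 over all genes. With both replicate 3 arrays of day 7 left out, 2 of 8 members passed in each: Lcn2 and Serpina3n at day 0, Lcn2 and Cp at day 7, and Lcn2 and Serpina3n for the difference. Of all genes, 3.79%, 12% and 1.46% then passed. With the replicate number as a block, 0 members passed, and the counts over all genes moved from 328 to 572 at day 0, from 1197 to 1850 at day 7 and from 4 to 26 for the difference. The 3 comparisons share arrays with each other.

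**Figure D2:**
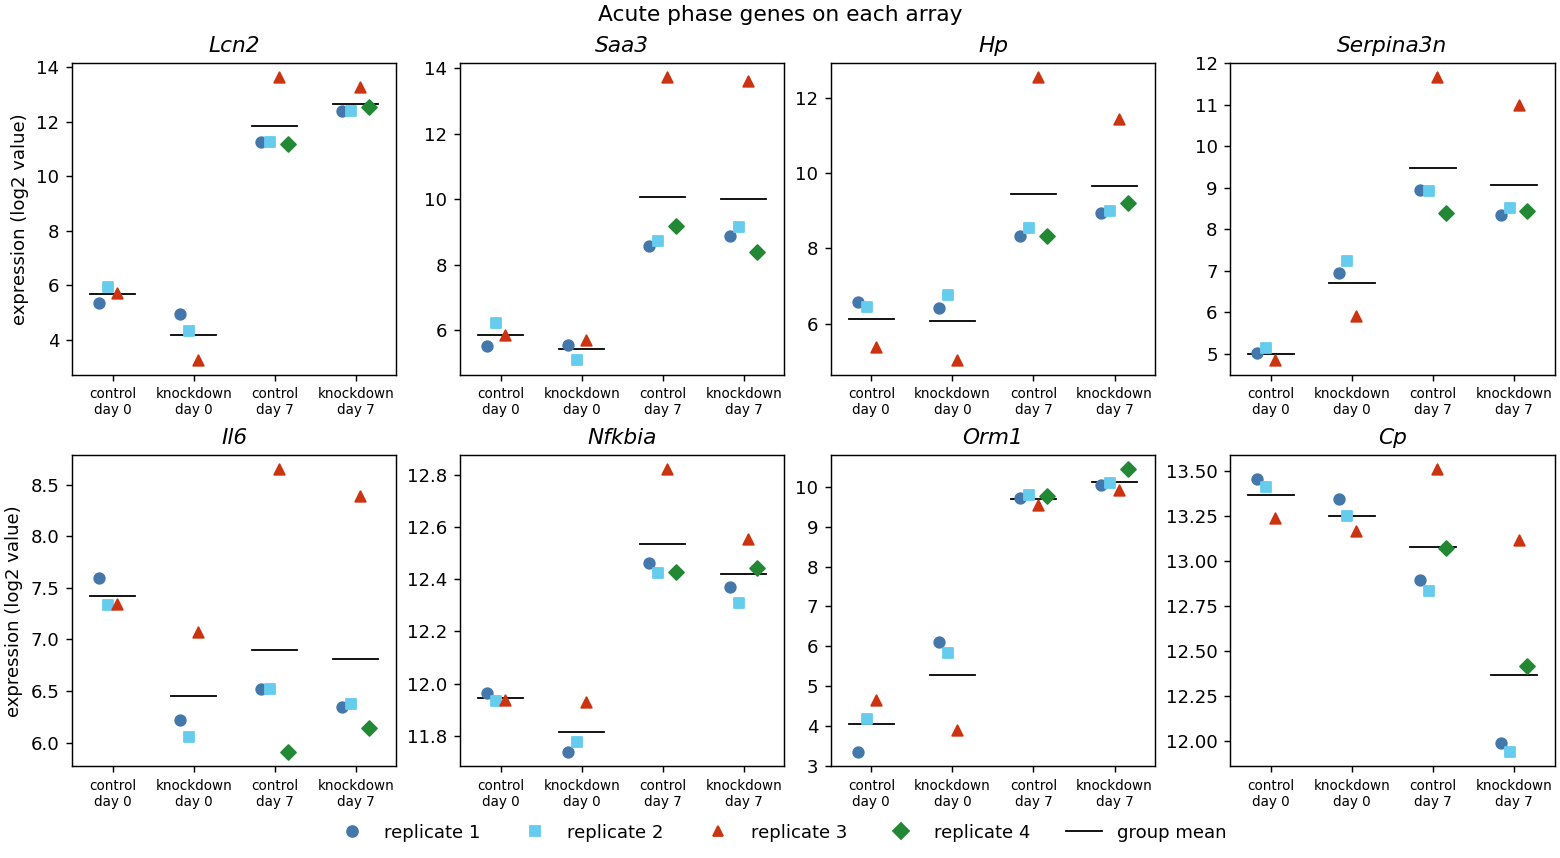
Log2 intensity (y axis, with its own range for each gene) of the 8 measured members in every array, in 4 groups (control and knockdown at day 0 and day 7), with 1 point per array, its shape and colour giving the replicate number, and a line at the group mean. At day 7 the replicate 3 arrays (red triangles) lie far above the others for Saa3, Hp, Serpina3n and Il6 in both groups, while Orm1 shows no such gap.

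Lcn2 was lower in the knockdown before differentiation and, outside replicate 3, higher after it. At day 0 it was 5.34, 5.96 and 5.73 in the control arrays and 4.96, 4.33 and 3.25 in the knockdown arrays. The day 0 groups did not overlap. At day 7 it was 11.26, 11.25, 13.64 and 11.20 in control replicates 1 to 4 and 12.39, 12.40, 13.26 and 12.55 in the knockdown. Control replicate 3 was the highest of all 8 arrays, and the other 3 control arrays lay below every knockdown array. Without replicate 3, the day 7 groups of 4 of 8 members did not overlap, with Lcn2, Orm1 and Hp higher and Cp lower in the knockdown, and 34.8% of all genes had such groups.

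The Lcn2 means were 5.68 ± 0.31 (SD, n = 3) and 4.18 ± 0.86 (n = 3) in control and knockdown at day 0, and 11.83 ± 1.20 and 12.65 ± 0.42 (n = 4 each) at day 7. The knockdown effect was -1.49 ± 0.59 (SE) at day 0 (95% interval -2.78 to -0.21, limma adjusted p = 0.243) and 0.81 ± 0.51 at day 7 (-0.30 to 1.93, adjusted p = 0.377). The difference between the 2 effects was 2.31 ± 0.78 (0.61 to 4.01, adjusted p = 0.243). Replicates 1 and 2 of day 7 were close to each other, leaving out the dimmest 40% of genes. The SD of their difference was 0.11 in control and 0.18 in knockdown, beside 0.31 to 0.54 for the other pairs of a day 7 group. An n of 3 without replicate 3 thus holds 2 arrays that were nearly alike, and its SD may understate the spread. With the replicate 3 arrays left out, the day 7 means were 11.23 ± 0.03 in control and 12.44 ± 0.09 in knockdown (SD, n = 3 each). In that fit Lcn2 fell by 1.49 ± 0.33 at day 0 (limma adjusted p = 0.0366), rose by 1.21 ± 0.33 at day 7 (adjusted p = 0.0398), and the effects differed by 2.70 ± 0.47 (adjusted p = 0.0307). The day 0 arrays are the same in both fits, and only the pooled spread differs. Leaving out control replicate 3 alone gave 1.41 ± 0.34 at day 7 (adjusted p = 0.0448). A fit with all arrays and a term for each pair of same-numbered arrays within a day made no Lcn2 call (adjusted p = 0.094 at day 0, 0.186 at day 7 and 0.0811 for the difference). The day 0 values (3.25 to 5.96) lie near or below the array medians of 5.44 to 5.57, and no detection calls were used. Whether Lcn2 was above background at day 0 is not known, so its day 0 difference may be variation of background signal. Where a dim gene is expressed, array intensities understate fold differences.

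**Figure D3:**
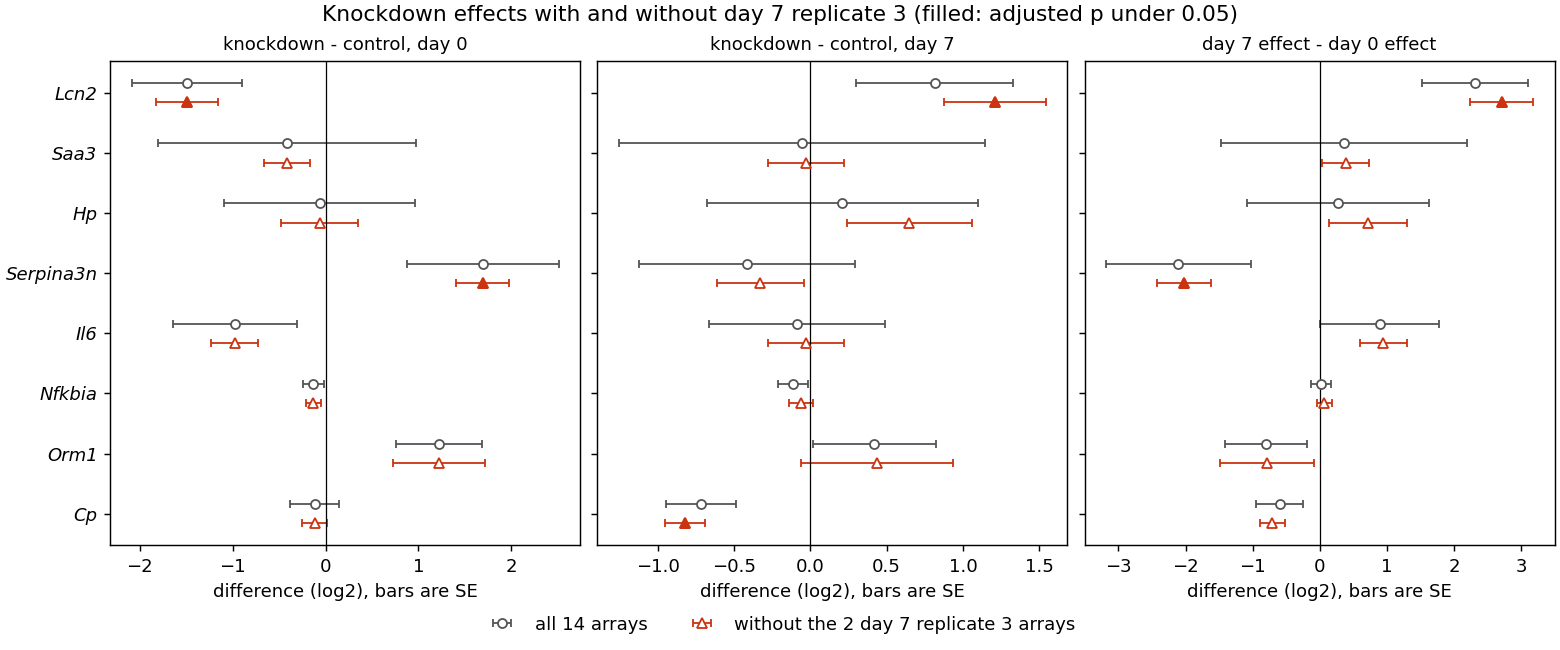
Knockdown minus control (log2, x axis) for each member (y axis) at day 0 and day 7, and the difference of these effects, with the standard error as a bar, from all 14 arrays (circles) and without both day 7 replicate 3 arrays (triangles). Filled symbols passed the threshold. Lcn2 lies at -1.49 at day 0 and at 0.81 at day 7, moving to 1.21 without replicate 3, while Saa3 lies near 0 at day 7 in both.

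Serpina3n was measured in the opposite order to Lcn2 at day 0. It was 5.02, 5.14 and 4.84 in the control arrays and 6.95, 7.23 and 5.91 in the knockdown arrays, with no overlap. At day 7 it was 8.95, 8.92, 11.66 and 8.39 in control and 8.35, 8.50, 10.99 and 8.43 in knockdown, and these groups overlapped. The effect was 1.69 ± 0.82 at day 0 (limma adjusted p = 0.347) and -0.41 ± 0.71 at day 7 (adjusted p = 0.789). Serpina3n, without both replicate 3 arrays, rose in the knockdown at day 0 by 1.69 ± 0.29 (adjusted p = 0.0106), and the day 7 effect differed from it by -2.02 ± 0.40 (adjusted p = 0.0428). The fit with a term for each same-numbered pair within a day gave an adjusted p of 0.00878 at day 0 and 0.0302 for the difference, and passed 4.64% of all genes at day 0, 14.7% at day 7 and 1.08% for the difference. Serpina3n belongs to a cluster of related genes, as do Saa3 and Orm1, and whether the probes tell the relatives apart was not checked.

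No knockdown effect on Saa3 or Hp was detectable within the wide intervals of these arrays. Saa3 was 5.52, 6.21 and 5.84 in control and 5.56, 5.08 and 5.68 in knockdown at day 0. Its day 7 levels were 8.58, 8.73, 13.73 and 9.18 in control and 8.87, 9.15, 13.60 and 8.39 in knockdown. The groups overlapped at both times. The Saa3 effect was -0.41 ± 1.39 at day 0 (95% interval -3.42 to 2.59, limma adjusted p = 0.937) and -0.05 ± 1.20 at day 7 (-2.65 to 2.55, adjusted p = 0.987). The day 7 effect was -0.03 ± 0.25 without both replicate 3 arrays (adjusted p = 0.965).

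Hp was 6.58, 6.44 and 5.37 in control and 6.41, 6.77 and 5.02 in knockdown at day 0. At day 7 it was 8.32, 8.53, 12.54 and 8.34 in control and 8.94 to 9.20 in knockdown replicates 1, 2 and 4 and 11.43 in knockdown replicate 3. The 3 knockdown arrays other than replicate 3 lay above the 3 such control arrays, while replicate 3 lay the other way. The Hp effect at day 7 was 0.21 ± 0.89 (95% interval -1.72 to 2.14, limma adjusted p = 0.925), and 0.65 ± 0.41 without both replicate 3 arrays (adjusted p = 0.373). At day 0 it was -0.06 ± 1.03 (adjusted p = 0.988), a sign that turned when arrays were shifted to 1 median, which moved every day 0 effect by 0.16.

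Orm1 was 3.34, 4.18 and 4.65 in control and 6.11, 5.83 and 3.90 in knockdown at day 0, with knockdown replicate 3 inside the control range. The day 7 arrays gave 9.71, 9.80, 9.54 and 9.77 in control and 10.05, 10.11, 9.91 and 10.44 in knockdown. All 4 knockdown arrays were above all 4 control arrays at day 7. Orm1 was the 1 member of 8 whose day 7 groups did not overlap, and 13% of all genes had such groups, 6.02% with the knockdown higher and 6.96% with it lower. The effect was 1.22 ± 0.46 at day 0 (limma adjusted p = 0.219) and 0.42 ± 0.40 at day 7 (adjusted p = 0.589). Leaving out knockdown replicate 3 of day 0 gave 1.91 ± 0.29 at day 0 (adjusted p = 0.00517). Its close relative Orm2 rose in the knockdown at day 7 by 0.73 ± 0.17 (adjusted p = 0.0273), while Orm3 was at -0.70 (adjusted p = 0.3).

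Cp was among the brightest genes on the arrays, with a mean level above that of 99.1% of genes. It was 13.46, 13.41 and 13.24 in control and 13.35, 13.25 and 13.17 in knockdown at day 0. After differentiation it was 12.90, 12.84, 13.51 and 13.07 in control and 11.99, 11.94, 13.12 and 12.42 in knockdown. Each knockdown array at day 7 lay below the control array of the same number, by 0.91, 0.90, 0.40 and 0.66. The groups overlapped through knockdown replicate 3.

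The Cp effect was -0.12 ± 0.26 at day 0 (limma adjusted p = 0.899) and -0.71 ± 0.23 at day 7 (adjusted p = 0.0774), and the difference of the effects was -0.60 ± 0.35 (adjusted p = 0.495). Cp fell in the knockdown at day 7 by 0.82 ± 0.13 once both replicate 3 arrays were left out (adjusted p = 0.00372), and without knockdown replicate 3 alone by 0.97 ± 0.16 (adjusted p = 0.00347). The fit with a term for each same-numbered pair within a day gave -0.71 ± 0.10 (adjusted p = 0.00582). Cp has 8 probe sets, and all 8 were below 0 at day 7, from -1.68 to -0.53. In a test over all probe sets 2 passed, at -1.68 ± 0.28 (adjusted p = 0.00825) and -1.48 ± 0.30 (adjusted p = 0.017). At day 0, 6 of 8 were below 0, from -0.44 to 0.27, and 0 passed (limma). The chosen, brightest probe set had a smaller day 7 effect than 6 of the other 7.

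**Figure D4:**
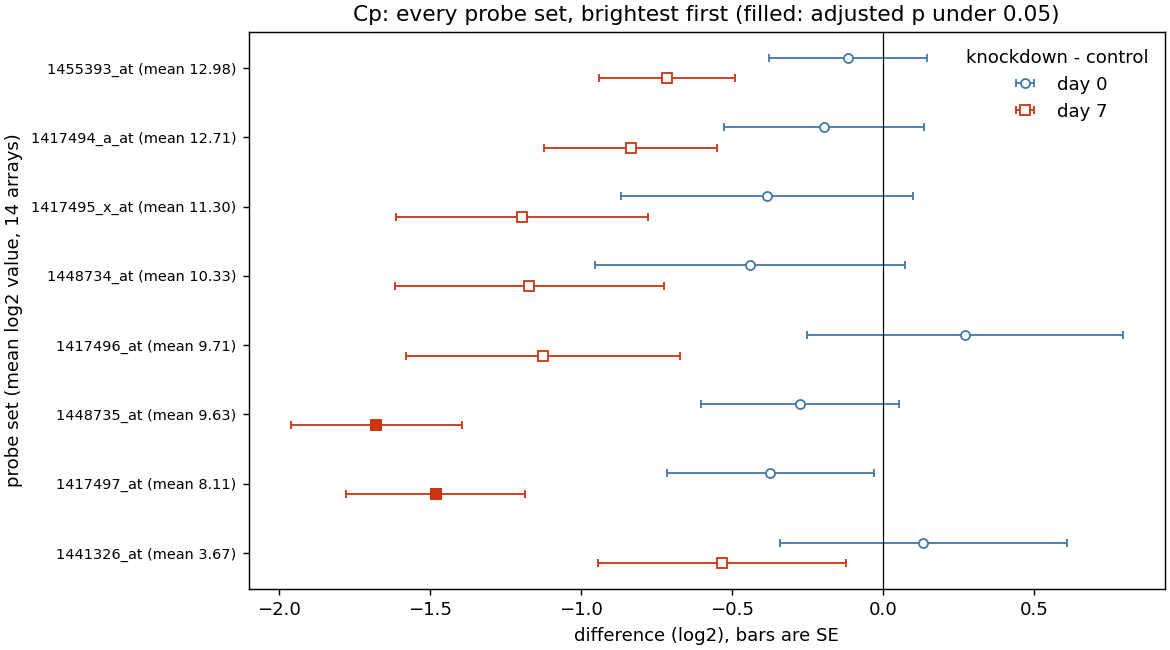
Knockdown minus control (log2, x axis) for each of the 8 Cp probe sets (y axis, ordered by mean level) at day 0 (circles) and day 7 (squares), with the standard error as a bar and filled symbols for the 2 that passed. At day 7 all 8 lie below 0, and at day 0 they lie on both sides of it.

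Il6, the cytokine that induces many acute phase genes, was 7.60, 7.33 and 7.34 in control and 6.22, 6.05 and 7.07 in knockdown at day 0. The knockdown arrays were all lower, and knockdown replicate 3 was closest to control. By day 7 it was 6.52, 6.52, 8.65 and 5.91 in control and 6.34, 6.37, 8.39 and 6.14 in knockdown, and these overlapped. The effect was -0.98 ± 0.67 at day 0 (limma adjusted p = 0.544) and -0.09 ± 0.58 at day 7 (adjusted p = 0.955). At day 0 the adjusted p was 0.0591 without both day 7 replicate 3 arrays and 0.0437 in the fit with a term for each same-numbered pair within a day.

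Nfkbia, itself a target of NF-kappaB, differed little between knockdown and control. It was 11.96, 11.94 and 11.94 in control and 11.74, 11.78 and 11.93 in knockdown at day 0, and 12.42 to 12.82 in control and 12.31 to 12.55 in knockdown at day 7. The day 0 groups did not overlap, though the lowest control array (11.94) lay next to the highest knockdown array (11.93), and the day 7 groups did. The effect was -0.13 ± 0.11 at day 0 (limma adjusted p = 0.655) and -0.11 ± 0.10 at day 7 (adjusted p = 0.545), and the sign at each day was not the same in all 5 of its probe sets. In all, 4 of 8 members had day 0 groups that did not overlap: Lcn2, Il6 and Nfkbia with the knockdown lower and Serpina3n with it higher. Of all genes, 22.6% had such groups at day 0, 15.7% with the knockdown lower and 6.89% with it higher.

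Most members were far higher at day 7 than at day 0. From day 0 to day 7, 6 of 8 members rose in control cells, where 10.1% of all genes rose and 22.9% passed in either direction, and the same 6 rose in knockdown cells, where 19% rose and 35.8% passed. These were Lcn2, Saa3, Orm1, Hp, Serpina3n and Nfkbia. The members' median change was 3.75 in control and 2.97 in knockdown cells, beside -0.01 and 0.01 over all genes. Lcn2 rose by 6.16 ± 0.55 in control (71.4-fold, limma adjusted p = 1.62e-05, and 5.56 ± 0.33 or 47.1-fold without replicate 3) and 8.47 ± 0.55 in knockdown cells (354-fold, adjusted p = 7.74e-07, and 8.26 ± 0.33 without replicate 3). Orm1 rose by 5.65 ± 0.43 (adjusted p = 7.45e-06) and 4.85 ± 0.43 (adjusted p = 4.48e-06). For Lcn2 the highest day 0 array was at 5.96 and the lowest day 7 array at 11.20, and for Orm1 they were at 6.11 and 9.54. The day 0 levels of both genes may be near background, so the size of these folds is uncertain.

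The rise of the members that were high in replicate 3 depended more on single arrays. Saa3 rose by 4.20 ± 1.30 in control and 4.56 ± 1.30 in knockdown cells (limma adjusted p = 0.0335 and 0.0143), and by 2.98 ± 0.25 and 3.36 ± 0.25 without both replicate 3 arrays. Hp rose by 3.30 ± 0.96 and 3.58 ± 0.96 (adjusted p = 0.0253 and 0.0104), and by 2.27 ± 0.41 and 2.98 ± 0.41 without them. Serpina3n rose by 4.48 ± 0.76 and 2.37 ± 0.76 (adjusted p = 0.00113 and 0.0271), and by 3.75 and 1.73 without them. The Saa3 call in control cells was lost when any 1 control array of day 0 (adjusted p = 0.0728 to 0.0988) or control replicate 3 of day 7 (adjusted p = 0.0551) was left out. The Hp call in control cells was lost without any 1 control array of day 0 (adjusted p = 0.0537 to 0.094). The Serpina3n call in knockdown cells was lost without knockdown replicate 1 or 3 of day 0 or knockdown replicate 3 of day 7 (adjusted p = 0.0553 to 0.107). The calls of these 3 genes held in both groups without both replicate 3 arrays of day 7, where 26.7% of all genes passed in control and 39.4% in knockdown cells. With replicates 1 and 2 of each group averaged to 1 sample, the calls of Saa3 and Hp in both groups (adjusted p = 0.0558 to 0.152) and of Serpina3n in knockdown cells (adjusted p = 0.0974) were lost.

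Nfkbia rose by 0.59 ± 0.11 in control and 0.60 ± 0.11 in knockdown cells (limma adjusted p = 0.00176 and 0.000666). Its dimmer probe sets rose by 0.57 to 1.34 in control and 0.65 to 1.31 in knockdown cells. Cp fell in knockdown cells by 0.89 ± 0.24 (adjusted p = 0.012, and 0.139 with replicates 1 and 2 averaged), where 16.8% of all genes fell, and was at -0.29 ± 0.24 in control cells (adjusted p = 0.471). Without both replicate 3 arrays this brightest Cp probe set fell in control cells too, by 0.43 ± 0.13 (adjusted p = 0.0322). With all arrays, every other Cp probe set was also below 0 in control cells. Those at -1.46 ± 0.31 and -1.76 ± 0.32 passed in a test over all probe sets (limma adjusted p = 0.00481 and 0.00195). Il6 was at -0.53 ± 0.62 in control cells (adjusted p = 0.631) and 0.36 ± 0.62 in knockdown cells (adjusted p = 0.717). Without both replicate 3 arrays Il6 fell in control cells by 1.11 ± 0.25 (adjusted p = 0.0071) and was at -0.16 in knockdown cells.

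Other acute phase genes were read from a list of 32, of which 23 were measured. In the knockdown, 1 fell and 0 rose at day 0, where 1.34% of all genes fell, and 1 rose and 3 fell at day 7, where 3.01% rose and 3.57% fell (limma). The metallothionein gene Mt2, whose product binds zinc and copper, fell by 0.60 ± 0.14 at day 0 (adjusted p = 0.0499, and 0.0627 in the fit with a term for each same-numbered pair within a day) and 0.64 ± 0.12 at day 7 (adjusted p = 0.0112). Mt1 fell by 0.33 ± 0.07 at day 7 (adjusted p = 0.0187). The lipocalin family member Apod fell by 1.70 ± 0.41 at day 7 (adjusted p = 0.03), and Orm2, given above, rose. Saa1 and Saa2 were at -1.33 ± 1.06 and -0.58 at day 7 (adjusted p = 0.502 and 0.446). The list's median at day 7 was -0.16, beside -0.02 over all genes. With both replicate 3 arrays left out, 2 fell at day 0 (Mt2 and Steap4), where 3.79% of all genes passed, and 2 rose (Orm2 and Itih4) and 5 fell (Saa1, Ptx3, Mt1, Mt2 and Apod) at day 7, where 12% of all genes passed. In that fit Saa1 fell by 1.27 ± 0.22 (adjusted p = 0.00575).

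In IL-6, gp130 and STAT3 signalling, 19 genes were measured, and none rose in the knockdown. Pias3, an inhibitor of STAT3, fell by 0.52 ± 0.11 at day 0 (limma adjusted p = 0.0322), where 1.34% of all genes fell. At day 7 3 genes fell, beside 3.57% of all genes. These were the receptor gene Lifr by 0.69 ± 0.17 (adjusted p = 0.0369), the kinase gene Tyk2 by 0.48 ± 0.13 (adjusted p = 0.0426, and 0.0573 with the replicate block) and Cebpd by 0.90 ± 0.19 (adjusted p = 0.0173). Cebpd encodes C/EBP-delta, a factor of early fat cell formation and of the acute phase. Socs3, the feedback inhibitor of this pathway, was at -0.84 ± 0.24 (adjusted p = 0.0599), Stat3 at -0.24 (adjusted p = 0.148), Cebpb at -0.10 (adjusted p = 0.657) and the gp130 gene Il6st at -0.60 (adjusted p = 0.114). The receptor gene Il6ra was at 0.81 ± 0.21 at day 0 (adjusted p = 0.0708) and -0.46 at day 7 (adjusted p = 0.141), and the difference was -1.27 ± 0.27 (adjusted p = 0.0994). The list's median was -0.17 at day 0 and -0.29 at day 7. Of all 18193 genes, 511 fell at day 0 and 1215 at day 7 without both replicate 3 arrays. In that fit 3 of the 19 fell at day 0 (Osmr, Clcf1 and Pias3) and 7 at day 7. Those 7 were Il6st, Osmr, Lifr, Jak1, Socs3, Pias3 and Cebpd, with Socs3 at -0.86 ± 0.13 (adjusted p = 0.00252).

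In the NF-kappaB pathway, 26 genes were measured, and 1 fell at day 7: Birc3, an inhibitor of cell death, by 0.63 ± 0.17 (limma adjusted p = 0.0482). Of all genes, 3.57% fell at day 7. The subunit gene Rela was at -0.06 (adjusted p = 0.733), and Nfkb1 was not analysed. Of 16 inflammatory ligands and targets, 1 fell at day 7: Il1rn, the interleukin 1 receptor antagonist, by 2.33 ± 0.53 (adjusted p = 0.0247). Of 18 complement genes, 1 fell at day 7: the regulator Cd46, by 0.67 ± 0.16 (adjusted p = 0.0288). At day 0, 0 genes of these 3 lists passed (limma), with 4, 0 and 3 at an unadjusted p under 0.05. Among 17 lipocalin and iron handling genes, 0 passed at either day, with 3 and 4 at an unadjusted p under 0.05, and Slc22a17, proposed as a receptor for lipocalin 2, was at -0.29 at day 7 (adjusted p = 0.201). Among 9 glucocorticoid response genes 0 passed, with 2 and 5 at an unadjusted p under 0.05. For the difference of the effects, 0 genes of these 7 lists passed (limma), with 0 to 5 genes of a list at an unadjusted p under 0.05. Of all 18193 genes, 2808 at day 0, 4273 at day 7 and 2403 for the difference were under that value.

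More genes of these lists passed without both replicate 3 arrays, as did more genes in all (3.79% at day 0 and 12% at day 7). Of the NF-kappaB pathway, 1 gene fell at day 0 (Nfkbiz) and 5 at day 7 (Nfkbiz, Bcl3, Ikbkg, Il1rap and Birc3). Of the inflammatory ligands and targets, 1 fell at day 0 (Il1rn) and 5 at day 7 (Il1rn, Cxcl5, Ccl7, Csf1 and Vcam1), with Cxcl5 at -1.53 ± 0.13 (limma adjusted p = 0.000193). Of the complement genes, 3 fell at day 7 (Masp1, Cd55 and Cd46). Mmp9 of the lipocalin and iron handling list fell at day 7, and Dusp1 of the glucocorticoid response list fell at day 0. For the difference of the effects, where 1.46% of all genes passed, 1 gene passed in each of 4 lists: Ptx3, Masp1, Cebpd and Cxcl5, each with a lower effect at day 7. The genes named from this fit alone were chosen after their values were seen.

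Most of these list calls rested on all arrays being present. Of the 12, 1 held in each of the 14 fits that left out an array: Mt2 at day 7, with an adjusted p of at most 0.0378 (limma). The Cebpd call held in 12 of 14, and was lost without knockdown replicate 1 or 2 of day 7 (adjusted p up to 0.0628). The Mt1 call held in 11, that of Cd46 in 10, those of Orm2, Apod and Il1rn in 9, and that of Pias3 in 8. Those of Lifr, Mt2 at day 0, Tyk2 and Birc3 held in 6, 4, 3 and 2. Without both replicate 3 arrays of day 7, 11 of the 12 held, and Tyk2 was at an adjusted p of 0.0777.

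The genes with the levels most like those of Lcn2 over the 14 arrays were Cyp2c55 (Pearson r = 0.981), Gins4 (0.978), Dnah11 (0.972), Eldr (0.972) and Zwilch (0.971). All 5 were higher at day 7 than at day 0 in both groups, so these values follow mainly the difference between the days that the arrays share. Their rise was smaller: Cyp2c55 rose by 1.41 ± 0.11 in control cells (limma adjusted p = 8.77e-06) and Zwilch by 1.98 ± 0.17 (adjusted p = 1.24e-05).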

How the data were processed

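RNA from 14 samples was amplified, labelled with biotin and hybridised to Affymetrix mouse arrays, per the labels' protocols. The deposited table holds log2 intensities for 45101 probe sets, and the submitters' processing notes name RMA and the affy package, without versions. RMA subtracts a modelled background and equalises the arrays' distributions, which compresses differences between dim values. No detection calls were used, so a low value has no stated background limit. Array medians were 5.44 to 5.57. Further settings: not given in the sources used here.

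Gene symbols came from the platform annotation: 34945 probe sets had 1 symbol, 932 had several and 9160 had none, and 64 control probe sets were left out. Of the 18193 genes, 18031 were found in the RefSeq table. A gene was represented by its single-symbol probe set with the highest mean over all arrays. Group means were fitted over all 14 arrays with lmFit and eBayes of limma 3.58.1 under R 4.3.3 (12.6 total degrees of freedom), 3 or 4 per group, which limits the precision. P-values were adjusted over all genes (Benjamini-Hochberg, threshold 0.05), and standard errors and 95% intervals are those of the moderated fit. The method was tested on simulated data.

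Arrays with the same replicate number deviated together from their group means (correlations of 0.23 to 0.32 for 3 pairs at day 0 and 0.25 to 0.74 for 4 pairs at day 7). Arrays with unlike numbers ranged from -0.31 to 0.13 at day 0 and from -0.68 to 0.61 at day 7. There control 2 with knockdown 1 gave 0.61 and control 1 with knockdown 2 gave 0.55. The labels do not say that the numbers mark pairs, so a pairing was not established. A fit with the replicate number as a block is given where it changed a call or a count. A fit with a term for each pair within a day was chosen after seeing the data. Other alternatives were the choice of probe set, a filter on dim genes, the normalization, fits per day, an intensity trend, and leaving out arrays. Replicates 1 and 2, the closest pair of arrays in each group, were also averaged to 1 sample. Members and lists were chosen with earlier results of these data known. The genes named are the members, at most 6 called genes per list, a fixed set of pathway genes (Socs3, Cebpb, Cebpd, Stat3, Nfkb1, Rela, Il6ra, Il6st, Saa1, Saa2, Orm2, Orm3 and Slc22a17), Trp53inp2, and the 5 genes most correlated with Lcn2. The genes named for day 7 replicate 3, or only in the fit without it, were chosen after their values were seen.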

Additional observations from a re-analysis of the deposited data

Results flagged for a closer look

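In 8 of 18 groups of 4 day 7 arrays, 1 array's gap to its nearest neighbour took a larger share of the group's range than Dixon's test allows at its 95% level, and in all 8 that array was replicate 3. Chance flags about 1 in 20 independent groups, but these groups share the same 8 arrays and replicate 3 was already known to stand apart, so the count is a description only. The share was 0.975 for Lcn2 in control, 0.884 and 0.855 for Saa3 in control and knockdown, and 0.949 and 0.897 for Hp in control and knockdown. It was 0.942 for Serpina3n in knockdown, 0.897 for Il6 in knockdown and 0.901 for Nfkbia in control. In each case replicate 3 was the highest array.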

How the results depend on the processing

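At day 0 328 genes were called for the knockdown. The count was 848 with every probe set tested, 498 without the dimmest 40% of genes, 572 with the replicate block, 844 with the block within each day, 24 with replicates 1 and 2 averaged, 690 without both day 7 replicate 3 arrays, 207 from only day 0 arrays, and 101 to 631 leaving out 1 array. Members called there, 0 as reported, were 2 without both replicate 3 arrays, 2 with the block within each day, and 0 to 1 leaving out 1 array. At day 7 the 1197 genes became 1831 without dim genes, 1850 with the replicate block, 2680 with the block within each day, 64 with replicates averaged, 2188 without both replicate 3 arrays, 333 from only day 7 arrays, and 369 to 2885 leaving out 1 array. Members called, 0 as reported, were 1 when the most variable probe set (by interquartile range) stood for a gene (Cp at -1.48), 1 without dim genes, 2 without both replicate 3 arrays, 1 with the block within each day, and 0 to 1 leaving out 1 array. For the difference of the effects, the 4 genes became 75 with every probe set, 12 with the most variable probe set, 57 without dim genes, 13 with arrays shifted to 1 median, 1 with quantile normalization, 26 with the replicate block, 196 with the block within each day, 0 with replicates averaged, 266 without both replicate 3 arrays, 8 with an intensity trend, and 1 to 317 leaving out 1 array. Members called, 0 as reported, were 2 without both replicate 3 arrays and 1 with the block within each day. For day 7 against day 0, the counts were 7076 (control) and 12055 (knockdown) with every probe set and 1584 and 4098 with replicates averaged, which left 4 and 3 members called. The replicate block changed no member's call.

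Signs turned only for values that had passed no test. With arrays shifted to 1 median, the day 0 effect was 0.048 for Cp, 0.10 for Hp and 0.033 for Nfkbia, and the difference of effects for Nfkbia was -0.13. With quantile normalization, Hp was 0.047 at day 0 and the Nfkbia difference -0.013, and with replicates averaged the latter was -0.017. With the most variable probe set, Nfkbia was 0.12 at day 0 and 0.16 at day 7. Il6 was -0.16 from day 0 to day 7 in knockdown cells without both replicate 3 arrays. Leaving out 1 array, the knockdown effect ranged from -0.44 to 0.46 for Hp at day 0. At day 7 it ranged from -1.25 to 1.17 for Saa3, -0.39 to 1.25 for Hp, -1.05 to 0.31 for Serpina3n and -0.61 to 0.50 for Il6. The difference ranged from -0.84 to 1.58 for Saa3, -0.32 to 1.31 for Hp and -0.028 to 0.11 for Nfkbia, and Il6 from day 0 to day 7 in knockdown cells from -0.16 to 0.68. The causes were not tested. In all, of the alternative values for single genes, 1244 kept direction and call, 132 lost the call, 18 gained one and 41 turned sign.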

Other observations

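Beyond the acute phase lists, some of the genes far above the other arrays in both replicate 3 samples of day 7 are given here, chosen after their values were seen. S100a7l2, Ccn5, Serpinb1b and Zbp1 ranked above Sprr2d by the smaller of the control and knockdown differences and are not described. Sorbs2, which encodes an adaptor protein of the cytoskeleton, was 7.38 in control replicate 3 against 1.66 to 3.27, and 6.43 in knockdown replicate 3 against 1.81 to 2.84. The prolactin gene Prl was 7.02 against 2.63 to 2.90, and 6.76 against 2.79 to 3.05. Serpinb9g was 6.19 against 1.66 to 3.60, and 8.04 against 3.46 to 4.27. Sprr2d, of the small proline-rich proteins of cornified epithelia, was 6.34 against 3.39 to 3.82, and 7.52 against 3.60 to 3.81. These are values of a single array per group.

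Steap4, a metalloreductase gene of fat cells that inflammation induces, was 10.94 in control replicate 3 against 6.18 to 6.55, and 8.42 in knockdown replicate 3 against 4.84 to 6.38.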
